A study of Mus musculus with 27 samples.

Results

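The integrin and laminin genes were taken as every symbol of the dorsal root ganglion table that names an integrin alpha chain, 1 of the integrin beta chains 1 to 8, or a laminin alpha, beta or gamma chain. This gave 37 genes of 55367, of which 26 encode integrins (18 alpha and 8 beta chains) and 11 encode laminins (5 alpha, 3 beta and 3 gamma chains). All 37 had at least 3 counts in each of the 15 ganglion libraries and all 37 were tested there. In 12 libraries of retinal ganglion cells, 16 of the 37 passed the filter on low counts.

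Integrins are receptors on the cell surface, each made of an alpha and a beta chain, that bind the extracellular matrix or other cells and connect them to the actin cytoskeleton. Laminins are trimers of an alpha, a beta and a gamma chain and are a main component of the basement membranes that surround Schwann cells, satellite glia and vessels of the ganglion. Growing axons adhere to laminin through integrins that share the beta-1 chain, and the alpha-7 beta-1 pair is known as a laminin receptor of regenerating peripheral neurons.

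The ganglion experiment used L4-L5 ganglia of mice and had 5 groups of 3 libraries. Wild-type and Ptpn2 knockout mice each had either a sham operation or an injury of the sciatic nerve, and a further group of injured wild-type mice received RU521, an inhibitor of the DNA sensor cGAS, injected into that nerve. Tissue was collected 3 days after injury. The titles call the uninjured ganglia intact and the treatment field calls them sham, and the text on the study speaks of nerve samples where each library is labelled ganglion. The labels give neither the driver of the ganglionic deletion nor a vehicle for RU521. The retinal experiment had 4 groups of 3 libraries: wild type and Ptpn2 knockout, each with PBS or with interferon gamma (IFNγ) injected into the eye. All 4 retinal groups had optic nerve injury. A virus carrying Cre or GFP had been given to Ptpn2 flox mice 2 weeks before it, and cells were collected 3 days after it. The labels do not say that replicates are separate animals, so the p-values measure only the spread between these libraries, which may be technical.

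Ganglion libraries held 14813365 to 22414750 counts and retinal libraries 13239988 to 17122057. Wild-type sham replicates 1 and 3 stood apart, with 26235 and 26802 detected genes against 34115 in replicate 2, and with 4.87% and 6.52% mitochondrial counts against 15.2%. Replicate 2 of that group had a summed level of skeletal muscle markers of 3947 CPM (counts scaled to library size), against 14.99 and 409. The RU521 libraries had 28803, 32488 and 30938 detected genes, all fewer than the 34340, 33275 and 33582 of the injured wild-type libraries without it. RU521 replicate 1 also had 7.83% mitochondrial counts, against 15.5% and 11.3% in replicates 2 and 3. Ptpn2, the targeted gene, was not called lower in the libraries labelled knockout. In ganglia it stood at 14.6 ± 4.1 CPM (SD, n = 3) in wild-type sham, 12.8 ± 2.7 in knockout sham, 17.7 ± 2.0 in wild-type injured and 23.0 ± 4.1 in knockout injured ganglia. The difference between genotypes did not pass edgeR's quasi-likelihood test in sham (log2 fold change -0.19 ± 0.22 SE) or in injured ganglia (0.38 ± 0.22). In retinal cells with PBS it stood at 7.06 ± 3.57 CPM in wild type and 8.64 ± 1.31 CPM in the knockout. Every direction below that involves the knockout rests on the labels. Counts over the whole gene do not show whether an exon was removed.

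Levels are given as CPM scaled with the TMM method, and between genes only as CPM per kb of exon. A gene was called when its Benjamini-Hochberg adjusted p, over all 18517 ganglion genes tested, was under 0.05. Changes are log2 fold changes with their standard error (SE). Shares of all genes tested are of edgeR calls at this threshold. Some counts have no such share beside them and are not read as a result about these genes. They are counts at an unadjusted p, by DESeq2 or limma-voom, and in fits without some libraries or with a covariate.

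The promoters of 3 integrin genes are printed as examples, and no result below rests on them. Itgb1 was called in both injury comparisons and under RU521, and Itgam in both injury comparisons. Itgax is the neighbour of Itgam on chromosome 7. Itgb2, Itga7 and Itgal were also called in both injury comparisons, but no promoter was at hand for them. RefSeq starts (GRCm38.p6) were used for 23 of the 37 genes, and the 250 bases before each of their 26 starts were searched on both strands for TTCNNNGAA, the core of the site bound by STAT dimers, and TGANTCA, an AP-1 site. The first was found before 2 starts (Itga10 and Lamb2) and in 7.02% of the 32851 windows of all genes, and the second before 1 start (Itgax) and in 6.75% of all windows. No member window held both motifs. Capitals mark the AP-1 match of Itgax, 56 bases before the start, and the other 2 windows hold no match to either motif. The windows are chr8:128685404-128685653 (plus strand) for Itgb1, chr7:128062390-128062639 (plus strand) for Itgam and chr7:128129300-128129549 (plus strand) for Itgax.
Itgb1: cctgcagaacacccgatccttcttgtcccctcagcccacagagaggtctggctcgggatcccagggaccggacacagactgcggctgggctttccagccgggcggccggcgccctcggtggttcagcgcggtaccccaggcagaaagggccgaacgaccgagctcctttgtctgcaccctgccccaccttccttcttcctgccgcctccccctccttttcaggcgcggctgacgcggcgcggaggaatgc
Itgam: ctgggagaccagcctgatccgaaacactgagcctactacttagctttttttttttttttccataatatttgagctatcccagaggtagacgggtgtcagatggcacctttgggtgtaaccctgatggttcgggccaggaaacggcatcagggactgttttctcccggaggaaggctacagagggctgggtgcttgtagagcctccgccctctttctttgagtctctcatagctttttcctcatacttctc
Itgax: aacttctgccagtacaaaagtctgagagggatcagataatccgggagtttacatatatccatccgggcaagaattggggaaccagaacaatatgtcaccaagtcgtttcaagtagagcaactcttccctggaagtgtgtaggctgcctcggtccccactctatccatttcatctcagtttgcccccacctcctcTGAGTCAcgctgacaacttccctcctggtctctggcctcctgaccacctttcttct

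Per length of exon, Itgb1 was the most abundant of the 37 genes in the ganglia, with a mean of 69.7 CPM per kb over 15 libraries. In the GRCm38 annotation of the counts Itgb1 spans chr8:128685654-128733200 (plus strand), Itga7 chr10:128933818-128958282 (plus strand) and Lama2 chr10:26980036-27619758 (minus strand), and counts are summed over all their exons. Itgb2, the beta chain of leukocyte integrins, followed at 21.9 CPM per kb, Itga7 at 19.4, Itgb8 at 11.7, Lamb1 at 10.6 and Itga6 at 8.22. Itga10 was the lowest, at 0.106 CPM per kb. The ranges of Itgb2, Itga7, Itgb8, Lamb1 and Itga6 over the libraries overlap, so that their order within a library can differ, whereas the lowest library of Itgb1 lies above the highest of the other 36 genes.

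**Figure D1:**
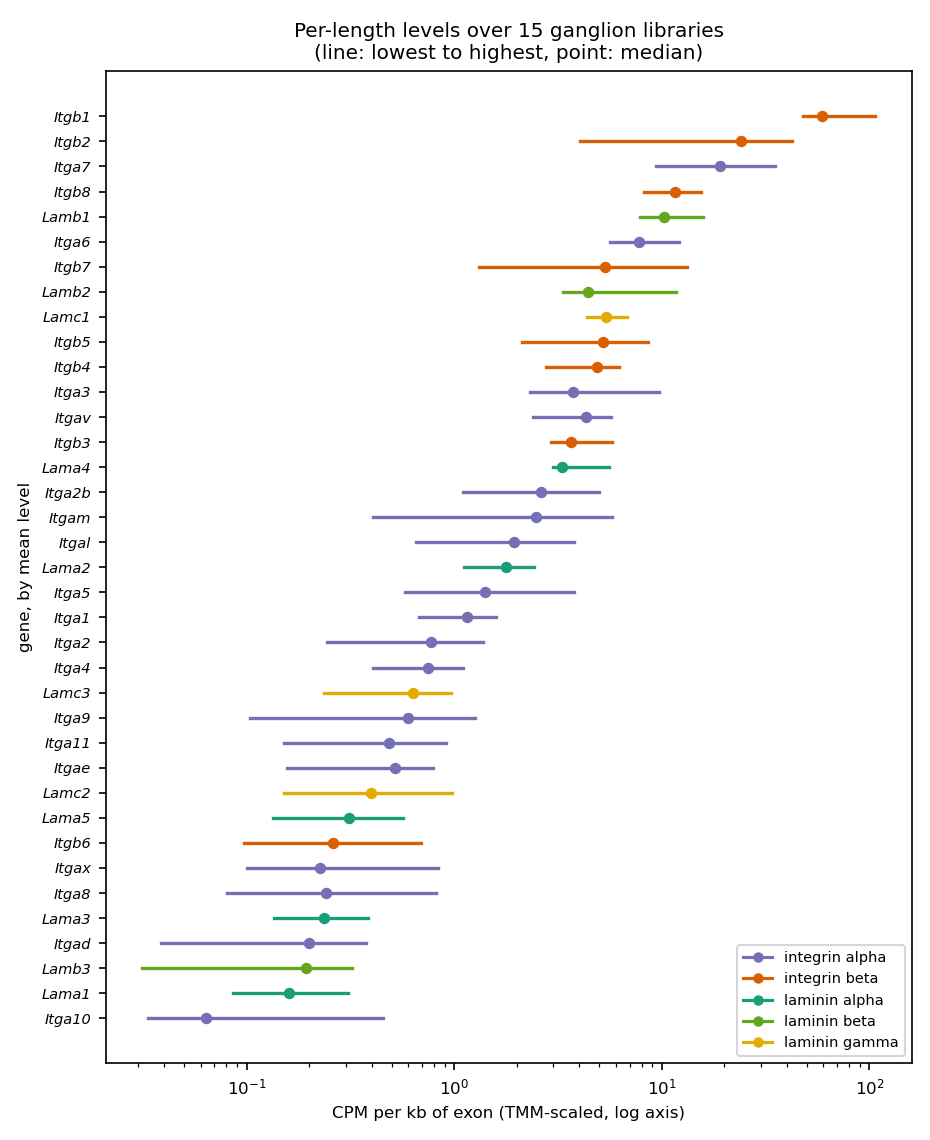
Levels of the 37 integrin and laminin genes in the ganglia, as TMM-scaled CPM per kb of exon on a log axis. Lines run from the lowest to the highest of 15 libraries, points are medians and colours mark the chain class. Itgb1 stands alone at the top, and the leukocyte chains Itgb2, Itgam and Itgb7 have wide ranges.

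Within each chain class the same gene led in all 5 groups. Itga7 made up 31.9% to 42.6% of the summed per-length level of the alpha chains (group means), and Itgb1 50.4% to 64.5% of the beta chains. Among laminins, Lama4 made up 55.5% to 60.5% of the alpha chains, Lamb1 63.0% to 71.9% of the beta chains and Lamc1 81.9% to 84.2% of the gamma chains. Lama2, the alpha chain of the main laminin of Schwann cell basement membranes, came after Lama4 with 23.5% to 33.3%. The share of Itgb2 among beta chains was 6.01% ± 1.76 (SD, n = 3) in wild-type sham and 18.1% ± 2.55 in wild-type injured ganglia.

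Injury in wild-type ganglia raised 8 of the 37 genes and lowered none. They were Itgb1, the common partner of the laminin-binding alpha chains, Itga7 and Itga4 among the alpha chains, the leukocyte chains Itgb2, Itgam and Itgal, and the laminin chains Lama4 and Lamb1. The 8 are 21.6% of the genes, where 16.6% of all genes tested were called in this comparison 8.6% higher and 7.98% lower. The median change was 0.37 over the 37 genes and 0.0004 over all genes tested, with 32 of the 37 above 0.

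Itgb1 measured 227, 206 and 287 CPM in the sham libraries and 392, 436 and 400 CPM in the injured ones. Every injured library lay above every sham library, and the change was 0.77 ± 0.16 with an adjusted p of 0.00576 (edgeR quasi-likelihood test). Itga7, whose product pairs with that of Itgb1, measured 120, 90.5 and 126 CPM in sham and 153, 282 and 222 CPM in injured ganglia. Its groups did not overlap either, and the change was 0.97 ± 0.25 (edgeR adjusted p 0.0168). The other laminin-binding alpha chains were not called: Itga6 changed by 0.27 ± 0.14 and Itga3 by -0.81 ± 0.29, with edgeR adjusted p of 0.216 and 0.0651.

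The 3 largest changes among the 37 genes were in leukocyte integrin chains. Itgb2, the shared beta chain of LFA-1 and Mac-1, measured 12.4, 22.9 and 15.02 CPM in sham and 99.1, 78.3 and 96.3 CPM in injured wild-type ganglia, a change of 2.45 ± 0.35 with an edgeR adjusted p of 0.000912. Itgam, the alpha chain of Mac-1, measured 2.05, 8.53 and 4.33 CPM against 13.2, 17.0 and 16.6 CPM (1.67 ± 0.37). Itgal, the alpha chain of LFA-1, measured 4.31, 7.35 and 4.49 CPM against 18.2, 12.7 and 14.5 CPM (1.5 ± 0.35). In all 3 the groups stood apart, and sham replicate 2 was the highest of the sham libraries. Of the exon length of Itgam, 68.7% is shared on the same strand with the predicted gene Gm49368, so its counts are uncertain. Itga4, a chain of receptors for VCAM-1 and fibronectin, measured 6.06, 10.4 and 5.67 CPM in sham and 12.7, 13.9 and 14.9 CPM in injured ganglia (0.91 ± 0.27), and its exons overlap Cerkl on the opposite strand over 8.04% of their length, where counting without strand cannot separate the genes.

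Markers of several cell types moved with these genes. All 10 macrophage markers rose in the same comparison, from a summed level of 338 to 1042 CPM in sham to 2548 to 2687 CPM in injured libraries, and all 7 neutrophil markers rose, from 412 to 1476 CPM to 3142 to 4161 CPM. All 5 red blood cell markers rose too, from 1186 to 6495 CPM to 10704 to 10773 CPM. Of 8 myelinating Schwann cell markers 4 rose (Drp2, Mbp, Pmp22 and Mal), with a sum of 10195 to 16369 CPM in sham and 22144 to 23993 CPM in injured libraries. Of 6 fibroblast markers 3 rose, and their sums overlapped, at 1384 to 3027 CPM and 2874 to 2921 CPM. Of 10 sensory neuron markers 7 fell, with a sum of 8973 to 14348 CPM in sham and 6501 to 6997 CPM in injured libraries. None of these markers was at 0 in either group, and their part in the changes of the integrin and laminin genes was not tested. In ganglia as bulk tissue, a change in the number of cells of a type and a change in RNA per cell cannot be told apart.

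Of the laminins, Lamb1 and Lama4 were called. Lamb1 measured 88.4, 121 and 101.3 CPM in sham and 135, 157 and 137 CPM in injured wild-type ganglia (0.47 ± 0.12, edgeR adjusted p 0.0199). Lama4, an alpha chain of vessel and nerve basement membranes, measured 37.2, 42.7 and 39.0 CPM against 51.9, 67.0 and 54.7 CPM (0.55 ± 0.13, edgeR adjusted p 0.0118). The groups of both genes stood apart. Lama2 measured 29.4, 38.6 and 30.8 CPM in sham and 38.4, 29.6 and 40.1 CPM in injured ganglia, which overlap, and its change of 0.13 ± 0.17 was not called.

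The wild-type count depended on single libraries. How the calls over all genes changed in the same fits is not given here. The count was 4 without sham replicate 1, 17 without sham replicate 2, 4 without sham replicate 3, 4 without injured replicate 2 and 5 without injured replicate 3. Without both sham libraries of few detected genes (replicates 1 and 3), and likewise in a fit that adjusted for how many genes a library detected, it was 2, namely Itgb1 and Itgb2, which were called under all 14 settings. Itga7 was called under 10 of the 14.

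**Figure D2:**
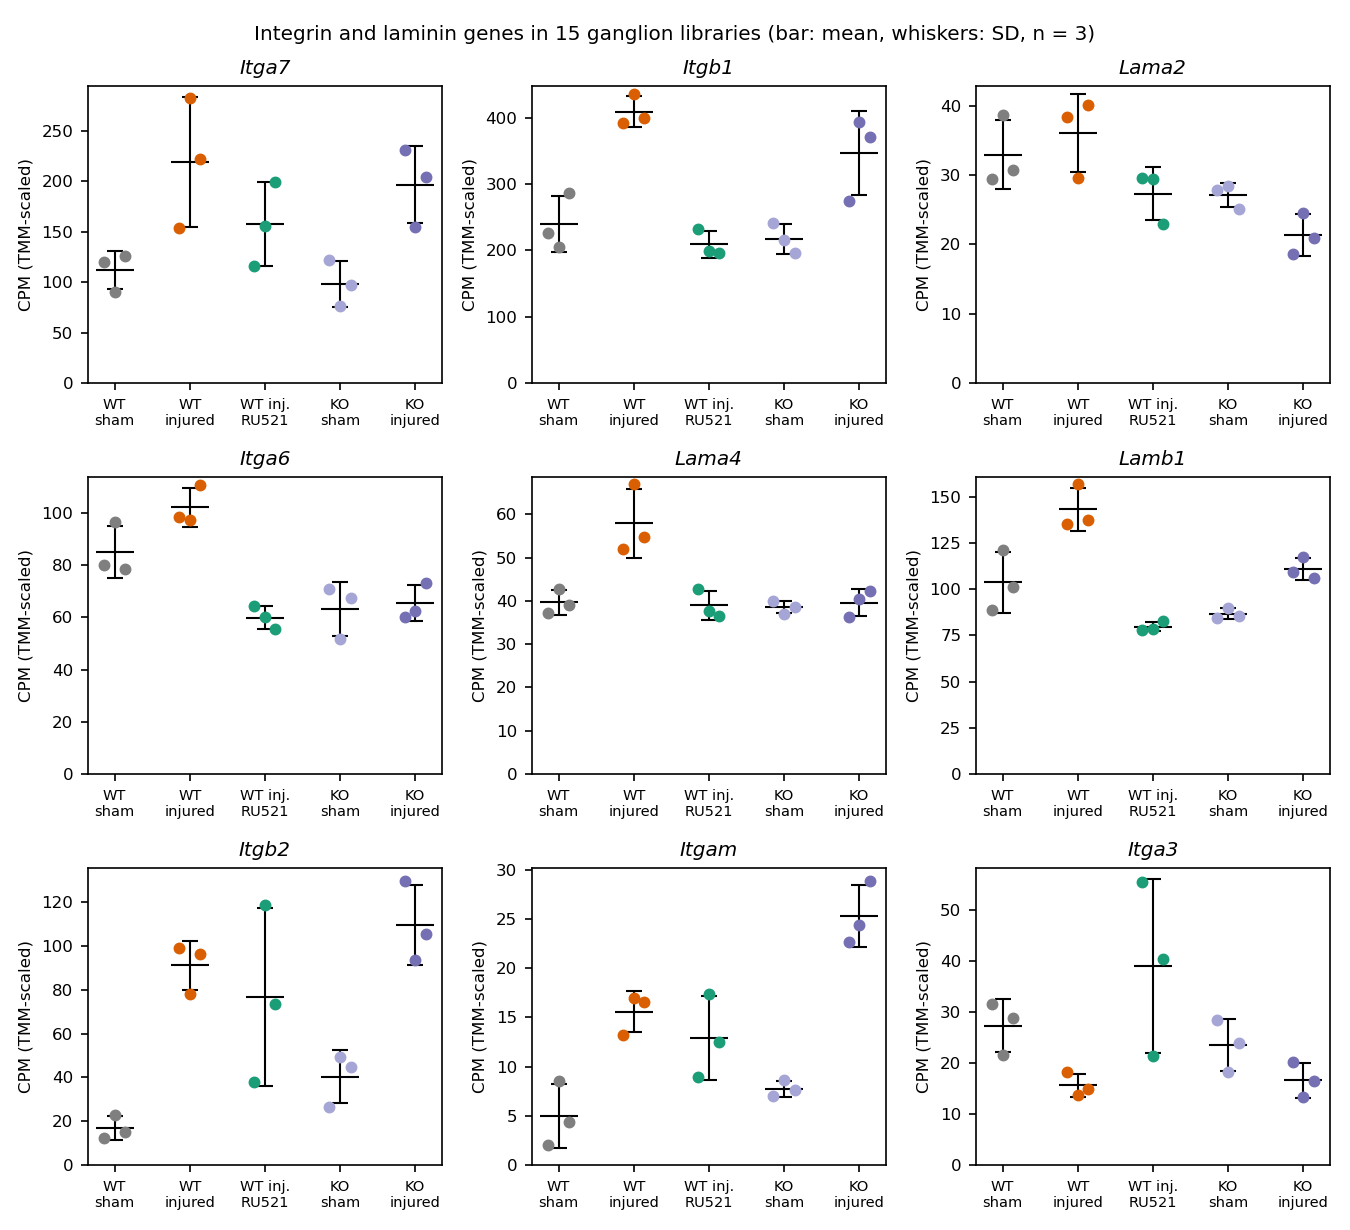
TMM-scaled CPM of 9 integrin and laminin genes in each of 15 ganglion libraries, by group (WT, wild type, KO, labelled Ptpn2 knockout). Points are libraries, the bar is the mean and whiskers are the SD (n = 3). Injured wild-type libraries lie above sham for Itgb1, Itga7, Lama4, Lamb1, Itgb2 and Itgam, and RU521 libraries lie below the injured ones for Itgb1, Itga6, Lama4 and Lamb1.

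Injury in the ganglia labelled knockout also raised 8 of the 37 genes and lowered none, where 10.9% of all genes tested were called, 6.34% higher and 4.57% lower. All 8 were integrins and no laminin was called, with 2 of 11 laminins at an unadjusted p under 0.05, 1 called by DESeq2 (Lamb1) and 2 by limma-voom (Lamb1 and Lamb3). The median change over the 37 genes was 0.39, against -0.01 over all genes. Itgb1, Itga7, Itgb2, Itgam and Itgal were called in both genotypes, which is 62.5% of each list of 8. The same share over all called genes is not given here, so the 62.5% is not read as a result about these genes. Neither injury comparison uses a library of the other.

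In the knockout-labelled ganglia Itgb1 measured 241, 215 and 196 CPM in sham and 275, 394 and 371 CPM in injured libraries (0.67 ± 0.16, edgeR adjusted p 0.0134). Itga7 measured 122, 76.2 and 96.9 CPM against 231, 155 and 204 CPM (1.0 ± 0.25, edgeR adjusted p 0.0178). Both pairs of groups stood apart, and the increases in Itga7 differed between genotypes by 0.03 ± 0.35 (edgeR adjusted p 0.986).

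Itgb2 measured 26.6, 49.2 and 45.0 CPM in knockout-labelled sham and 130, 93.7 and 106 CPM in injured ganglia (1.45 ± 0.34), and Itgam 7.0, 8.61 and 7.62 CPM against 22.7, 24.4 and 28.8 CPM (1.71 ± 0.36). Itgal measured 5.56, 7.71 and 9.43 CPM against 24.7, 12.7 and 14.6 CPM (1.20 ± 0.34). Itgax, which encodes the integrin alpha chain CD11c of dendritic cells and macrophages, measured 0.598, 1.08 and 0.485 CPM against 4.01, 1.61 and 2.51 CPM (1.90 ± 0.52). All 4 were higher in every injured library than in every sham library.

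Itgb7, the beta chain of gut-homing lymphocyte integrins that is also found on myeloid cells, measured 6.82, 12.7 and 10.8 CPM in sham and 36.4, 31.4 and 33.2 CPM in injured knockout-labelled ganglia (1.74 ± 0.52, edgeR adjusted p 0.0449). Itga5, the fibronectin receptor alpha chain, measured 5.80, 6.33 and 4.58 CPM against 18.7, 10.6 and 15.7 CPM (1.42 ± 0.40, edgeR adjusted p 0.0315). Neither was called in wild type, where their changes were 1.17 ± 0.52 and 0.37 ± 0.39, and for neither did the difference between genotypes pass the test (0.57 ± 0.73 and 1.06 ± 0.55). In these groups 8 of 10 macrophage markers rose, from a summed 680 to 945 CPM to 2774 to 3120 CPM, as did 4 of 7 neutrophil markers (1259 to 1803 CPM to 3784 to 3922 CPM) and 2 of 8 T and NK cell markers (14.4 to 17.5 CPM to 33.9 to 55.7 CPM). No marker was at 0, and their part was not tested. The count of 8 fell to 2 without injured replicate 1 or 3 or sham replicate 3 and to 3 without sham replicate 1 or 2, and Itgam was called under all 13 settings.

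Between genotypes after sham surgery, none of the 37 genes was called by edgeR, where 0.135% of all genes tested were called (0.108% higher and 0.027% lower). At an unadjusted p under 0.05 there were 4 (Itgb2, Itga6, Itga2 and Itgb6), DESeq2 called 1 and limma-voom 5, and the share of all genes above does not apply to these counts. Itgb2 was 1.27 ± 0.34 higher in the knockout-labelled libraries (edgeR adjusted p 0.191) and its groups did not overlap. Itga7, Itgb1 and Lama2 differed by -0.19 ± 0.25, -0.14 ± 0.16 and -0.28 ± 0.17. The summed macrophage markers measured 338 to 1042 CPM in wild-type and 680 to 945 CPM in knockout-labelled sham libraries, and the neutrophil markers 412 to 1476 CPM and 1259 to 1803 CPM. Of 5 fat markers 2 were higher (Ucp1 and Cidea), with a sum of 11.8 to 68.0 CPM in wild-type and 148 to 250.2 CPM in knockout-labelled sham libraries. Their part in the level of Itgb2 was not tested. Omitting wild-type sham replicate 2 gave 2 calls, Itgam and Itgb2.

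After injury, 3 of the 37 genes were lower in the knockout-labelled ganglia than in wild type and none was higher, where 2.2% of all genes tested were called, 1.39% higher and 0.81% lower. They were Itga6, the alpha chain of laminin receptors of Schwann cells, and the laminin chains Lama2 and Lama4. The median difference was -0.16 over the 37 genes, -0.37 over the 11 laminins and -0.01 over all genes, with 9 of the 11 laminins below 0.

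Itga6 measured 98.6, 97.3 and 111 CPM in wild-type and 60.3, 62.6 and 73.2 CPM in knockout-labelled injured libraries (-0.65 ± 0.14, edgeR adjusted p 0.0252). Lama2 measured 38.4, 29.6 and 40.1 CPM against 18.5, 24.6 and 20.9 CPM (-0.76 ± 0.17, edgeR adjusted p 0.0279). Lama4 measured 51.9, 67.0 and 54.7 CPM against 36.2, 40.4 and 42.2 CPM (-0.55 ± 0.13, edgeR adjusted p 0.038). In all 3 every knockout-labelled library lay below every wild-type one. In knockout-labelled sham libraries Lama4 measured 39.9, 37.0 and 38.6 CPM, which overlaps the injured ones, and Lama2 27.8, 28.4 and 25.1 CPM, which lies above them. Their injury changes in that genotype were 0.04 ± 0.13 and -0.35 ± 0.17, neither called.

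Markers of several cell types differed in the same comparison. Of 8 myelinating Schwann cell markers 3 were lower (Pmp22, Mal and Mbp), with a summed level of 22144 to 23993 CPM in wild type and 10296 to 13041 CPM in the knockout-labelled libraries. Of 6 fibroblast markers 3 were lower, at 2874 to 2921 CPM against 1907 to 2150 CPM. Further sums were lower without overlap: endothelium (264 to 271 against 232 to 249 CPM), mural cells and smooth muscle (484 to 527 against 298 to 432 CPM). The red blood cell sum was lower too (10704 to 10773 against 5293 to 6582 CPM). Sums of macrophage markers (2548 to 2687 against 2774 to 3120 CPM) and T and NK cell markers (17.6 to 25.5 against 33.9 to 55.7 CPM) were higher. No marker was at 0, and their part in the lower laminin and Itga6 levels was not tested. The 3 calls were not stable: none was left without knockout injured replicate 1, wild-type injured replicate 1 or wild-type injured replicate 3, and 1 was left without each of the other 3 libraries (Lama2, Itga6 and Lama2 without knockout replicate 2, knockout replicate 3 and wild-type replicate 2).

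The difference between the injury effects of the genotypes was tested directly. None of the 37 genes was called by edgeR in it, where 0.448% of all genes tested were called. At an unadjusted p under 0.05 there were 3, Itgb3 (-0.91 ± 0.30), Lama4 (-0.51 ± 0.18) and Itgb2 (-1.0 ± 0.47), while DESeq2 called 0 and limma-voom 5. Itgb3, the beta chain of the vitronectin and platelet fibrinogen receptors, measured 29.4, 31.8 and 31.8 CPM in wild-type and 17.3, 17.3 and 18.9 CPM in knockout-labelled injured libraries, which do not overlap, with an edgeR adjusted p of 0.066 between them. The summed platelet and megakaryocyte markers were 60.3 to 94.4 CPM and 28.4 to 54.9 CPM in the same libraries and did not overlap either. None of these 8 markers was at 0, and their part in the level of Itgb3 was not tested.

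RU521 in injured wild-type ganglia lowered 7 of the 37 genes and raised 1, where 9.58% of all genes tested were called, 4.48% lower and 5.1% higher. The lowered genes were the integrin chains Itgb1, Itga6, Itgb4, Itgb5 and Itga8 and the laminin chains Lamb1 and Lama4, and the raised gene was Itga3. Of the 37 genes 36 lay below 0, with a median difference of -0.48 against -0.03 over all genes. The injured wild-type libraries are the same as in the comparisons above, so these differences share them.

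Lamb1 measured 135, 157 and 137 CPM without RU521 and 77.8, 78.6 and 82.6 CPM with it (-0.84 ± 0.13, edgeR adjusted p 0.00173). Itgb1 measured 392, 436 and 400 CPM against 233, 199 and 195 CPM (-0.97 ± 0.16, edgeR adjusted p 0.00306). Itga6 measured 98.6, 97.3 and 111 CPM against 64.2, 60.0 and 55.4 CPM (-0.77 ± 0.14, edgeR adjusted p 0.00548). The groups stood far apart in all 3, and these were called under all 13 settings.

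Lama4 measured 51.9, 67.0 and 54.7 CPM without RU521 and 42.7, 37.6 and 36.4 CPM with it (-0.57 ± 0.13). Itgb4, the beta chain that joins the product of Itga6 in a laminin receptor of perineurial and myelinating Schwann cells, measured 34.5, 36.5 and 36.7 CPM against 21.0, 23.0 and 19.5 CPM (-0.76 ± 0.22). Itgb5, a beta chain of vitronectin receptors, measured 20.4, 20.7 and 18.4 CPM against 13.1, 9.52 and 7.51 CPM (-0.98 ± 0.28). None of these groups overlapped. Itga8, an alpha chain for RGD ligands such as nephronectin, was low, at 6.04, 3.31 and 2.90 CPM against 0.594, 1.07 and 0.688 CPM (-2.37 ± 0.60), and 5.05% of its exon length overlaps an opposite-strand gene.

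Itga3, a laminin receptor chain, went the other way, at 18.1, 13.8 and 14.96 CPM without RU521 and 55.3, 21.4 and 40.3 CPM with it (1.32 ± 0.29, edgeR adjusted p 0.0113). The RU521 libraries all lay above the others but spread widely, and wild-type sham libraries stood at 31.5, 21.5 and 28.8 CPM, within that spread. Itga7 measured 116, 156 and 199 CPM with RU521, which overlaps the injured libraries, and its difference of -0.48 ± 0.25 was not called (edgeR adjusted p 0.24). Lama2 measured 29.6, 29.4 and 22.9 CPM (-0.40 ± 0.17, edgeR adjusted p 0.151), and Itgb2 38.0, 119 and 73.5 CPM (-0.25 ± 0.33, edgeR adjusted p 0.696).

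Several marker lists moved with RU521. All 8 myelinating Schwann cell markers were lower, at a summed 8287 to 10076 CPM against 22144 to 23993 CPM without it, as were 4 of 6 fibroblast markers (1210 to 1517 CPM against 2874 to 2921 CPM), 2 of 8 endothelial markers (152 to 167 CPM against 264 to 271 CPM) and 3 of 10 macrophage markers (1017 to 3053 CPM against 2548 to 2687 CPM). Of 10 sensory neuron markers 6 were higher, at 7976 to 13279 CPM against 6501 to 6997 CPM. The 4 perineurial markers include Itgb4 itself, and 2 of them were lower. No marker was at 0, and their part in the integrin and laminin differences was not tested. The RU521 libraries also differed among themselves, with macrophage markers at 1017 CPM in replicate 1, 3053 in replicate 2 and 2083 in replicate 3, and Itgb2 was lowest and highest in the same libraries. The count of 8 was 3 without injured replicate 2, 4 without RU521 replicate 3 and 5 without injured replicate 1, injured replicate 3 or RU521 replicate 1. Detected genes separated the groups as well, at 28803 to 32488 with RU521 and 33275 to 34340 without it. In a fit that adjusted for how many genes a library detected, the count was 5.

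Against wild-type sham, injured ganglia with RU521 had 1 of the 37 genes higher and none lower, where 2.39% of all genes tested were called, 1.85% higher and 0.535% lower. Itgb2 rose by 2.20 ± 0.35 (edgeR adjusted p 0.00426), from 12.4, 22.9 and 15.02 CPM to 38.0, 119 and 73.5 CPM. Itgb1 and Itga7 differed from sham by -0.20 ± 0.16 and 0.49 ± 0.25, neither called. This comparison shares the sham libraries with the injury comparison in wild type, and a gene that was not called is not shown to be at its sham level. All 7 neutrophil markers rose here, from 412 to 1476 CPM to 1759 to 5321 CPM, and their part in the rise of Itgb2 was not tested. The count was 4 without RU521 replicate 1 or wild-type sham replicate 2 and 2 without wild-type sham replicate 1.

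**Figure D3:**
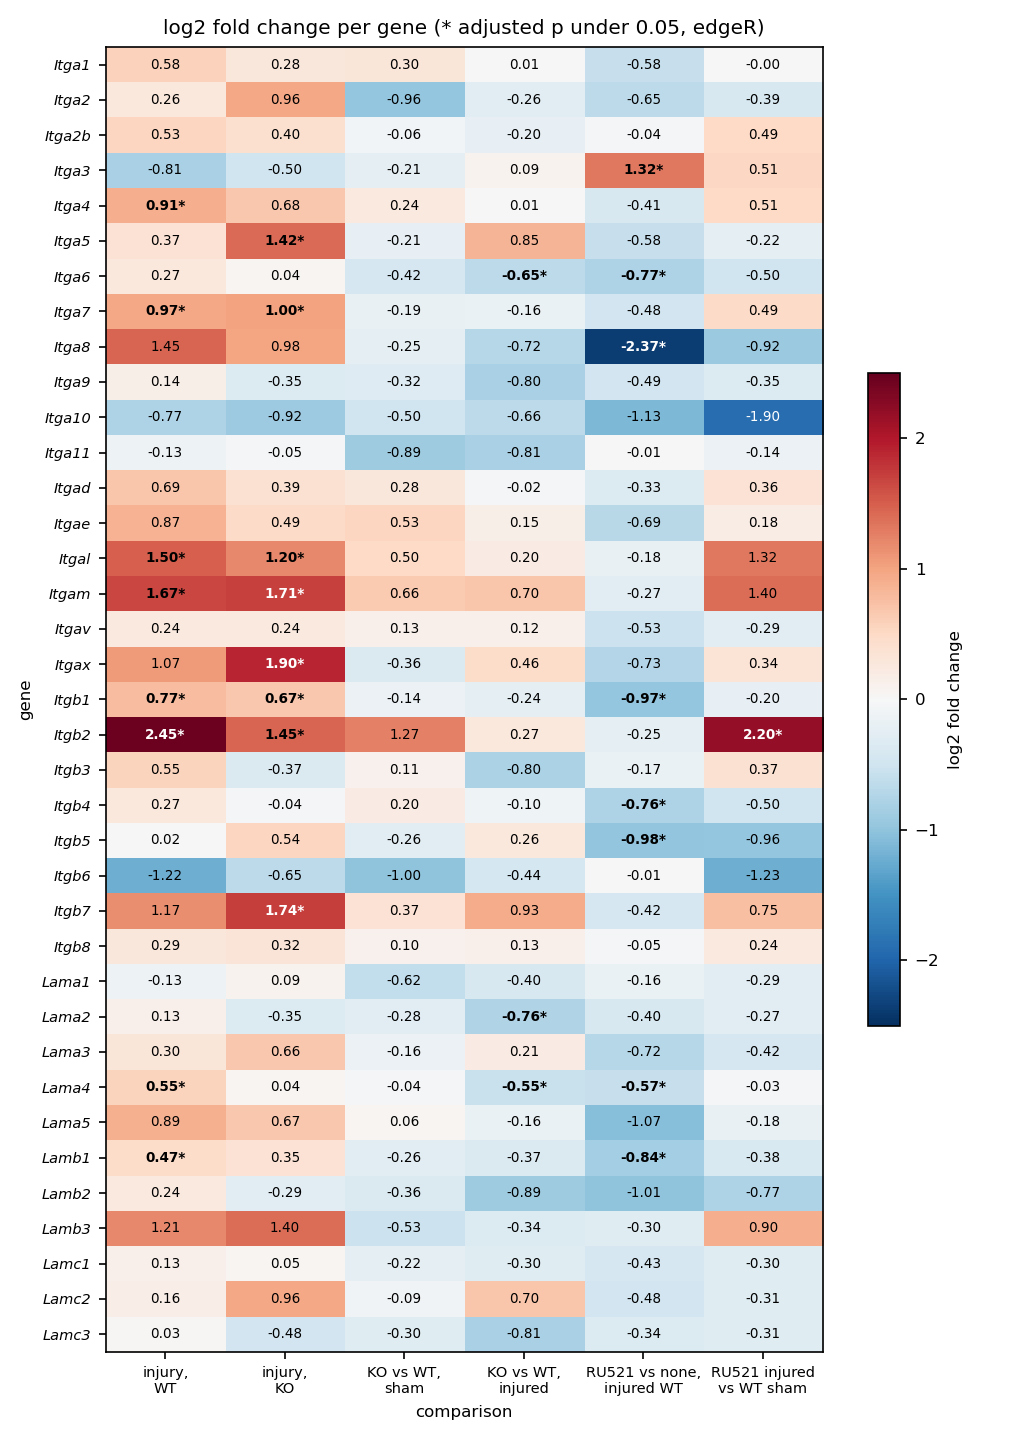
Log2 fold change of the 37 integrin and laminin genes in 6 ganglion comparisons (columns). Colour runs from blue (lower) to red (higher), and asterisks mark edgeR adjusted p under 0.05. Injury columns are mostly red, led by Itgb2 at 2.45 in wild type, and the RU521 column is mostly blue with Itga3 at 1.32 as the 1 raised gene.

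The genes that act with integrins and laminins were followed in 3 lists. Of 33 adaptors and adhesion signalling genes 4 rose and 2 fell with injury in wild type: Fermt3, the kindlin of blood cells (1.74 ± 0.42), Parvg, a parvin of blood cells (1.37 ± 0.44), the actin crosslinker Flna (1.0 ± 0.24) and Lims2 (0.69 ± 0.15) rose, while the talin gene Tln2 (-0.78 ± 0.18) and the parvin gene Parvb (-1.09 ± 0.31) fell. In the knockout-labelled ganglia 3 rose (Parvg, Fermt3 and Tln1) and 1 fell (Tln2, -0.81 ± 0.18). These calls are 18.2% and 12.1% of the list, near the 16.6% and 10.9% of all genes tested. Under RU521 4 were lower, among them Lims2 (-1.04 ± 0.16) and Parva (-0.58 ± 0.11), and 2 were higher, Tln2 (0.82 ± 0.18) and Parvb (1.19 ± 0.31), which is 18.2% of the list against 9.58% of all genes.

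Of 20 basement membrane partners and other laminin receptors, Dag1 recurred. Dag1 encodes dystroglycan, a laminin receptor that is no integrin, and it rose with injury in wild type (0.41 ± 0.13), was lower in knockout-labelled than wild-type injured ganglia (-0.83 ± 0.13, edgeR adjusted p 0.00153) and was lower with RU521 (-1.06 ± 0.13, edgeR adjusted p 0.000484). These 3 comparisons share the wild-type injured libraries. The nidogen gene Nid2, whose product links laminin to collagen IV, was lower in the knockout-labelled injured ganglia (-1.29 ± 0.21) and with RU521 (-0.88 ± 0.21), where Nid1 was lower too (-0.83 ± 0.17). In the list 2 rose and 1 fell with injury in wild type, none rose and 1 fell in the knockout-labelled ganglia, and 1 was higher and 4 were lower with RU521. In the comparisons with injury in the wild-type and the knockout-labelled ganglia, the shares called are 15% and 5% of the list, below the 16.6% and 10.9% of all genes, and with RU521 25% against 9.58%. Between genotypes after injury 2.2% of all genes were called. The number of the list called there is not given here, so Dag1 and Nid2 are not read as a result about the list.

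Of 25 other integrin ligands 4 rose with injury in wild type and 5 in the knockout-labelled ganglia, and none fell in either. The shares that rose are 16% and 20% of the list, against 8.6% and 6.34% of all genes. F13a1, a transglutaminase chain of macrophages and platelets, rose by 2.78 ± 0.38 and 1.49 ± 0.36, Vcam1, a ligand of the alpha-4 integrins, by 1.23 ± 0.32 and 1.09 ± 0.32, and Spp1, which encodes osteopontin, by 0.61 ± 0.16 and 0.84 ± 0.16. Icam1, the ligand of LFA-1 and Mac-1, rose in the knockout-labelled ganglia by 1.99 ± 0.49. With RU521 6 were lower, among them Spp1 (-1.07 ± 0.16) and Ccn1 (-1.63 ± 0.27), and 1 was higher, where 24% of the list and 4.48% of all genes were lower.

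In picked retinal ganglion cells integrin and laminin genes were detected unevenly. Of the 37, 10 had 0 counts in all 12 libraries (Itga1, Itgal, Itgb3, Itgb6, Itgb7, Itgb8, Lama1, Lama2, Lamb2 and Lamc3), which does not show that they are absent. A further 19 reached 3 counts in at least 3 libraries, and 8 had counts but fewer such libraries. Itgb1 and Itga5 reached 3 counts in all 12, and Itga3 in 11. Per length the order was Itgb1 with a mean of 8.70 CPM per kb, Itga5 with 5.63 and Itga3 with 5.51, and the ranges of these 3 overlapped.

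Itgb1 measured 38.9, 82.8 and 41.1 CPM in wild type with PBS, 21.3, 50.4 and 13.8 with IFNγ, 37.1, 35.9 and 7.04 in the knockout-labelled cells with PBS and 31.8, 49.1 and 16.9 with IFNγ. Itga5 measured 36.6, 15.6 and 7.6 CPM, 4.54, 18.4 and 16.8 CPM, 66.5, 34.5 and 7.71 CPM, and 45.4, 20.7 and 58.9 CPM in the same order. Itga7 was at 0 in wild type with PBS, and at 2.91, 2.47 and 0 CPM with IFNγ, 0.224, 7.34 and 0 CPM in knockout-labelled cells with PBS and 14.3, 0.450 and 1.76 CPM with IFNγ. Libraries of 1 group differed widely. Itgb1 did not overlap between genotypes with PBS (-1.03 ± 0.73), nor Itga5 with IFNγ (1.65 ± 0.88). Other tested genes without overlap were Itga2b and Lama4 between genotypes with IFNγ. Itga3 and Lamc1 did not overlap between IFNγ and PBS, in wild-type and in knockout-labelled cells respectively. None of these was called, and the share of all genes without overlap is not given here.

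None of the 16 genes tested was called by edgeR in the 4 retinal comparisons, where 0% (IFNγ in wild type), 0% (IFNγ in knockout-labelled cells), 0.0222% (genotype with PBS, 0.0148% higher and 0.00741% lower) and 0% (genotype with IFNγ) of all 13487 genes were called. The numbers at an unadjusted p under 0.05 were 2, 1, 2 and 3, and DESeq2 and limma-voom called 0. The common biological coefficient of variation was 1.27 in the retinal fit and 0.262 in the ganglion fit. The difference of Itgb1 between IFNγ and PBS was -0.93 ± 0.73 in wild type and 0.29 ± 0.73 in the knockout-labelled cells.

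The genes Itgax, Itgam, Itgb2 and Itgb5 were far higher in 1 retinal library than in the others. Replicate 2 of the knockout-labelled cells with PBS held Itgax at 125 CPM, Itgam at 46.8 CPM, Itgb2 at 43.0 CPM and Itgb5 at 27.3 CPM. In the other 11 libraries Itgax, Itgam and Itgb2 stood between 0 and 0.223 CPM and Itgb5 between 0 and 3.84 CPM. The summed level of the 10 macrophage markers was 2632 CPM in that library and 5.57 to 199 CPM in the others, with Mrc1 at 0 in its group, and its part in these values was not tested. None of the 4 genes passed the filter on low counts. The summed retinal ganglion cell markers were 2518 CPM in that library and 2147 to 5953 CPM over all 12.

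**Figure D4:**
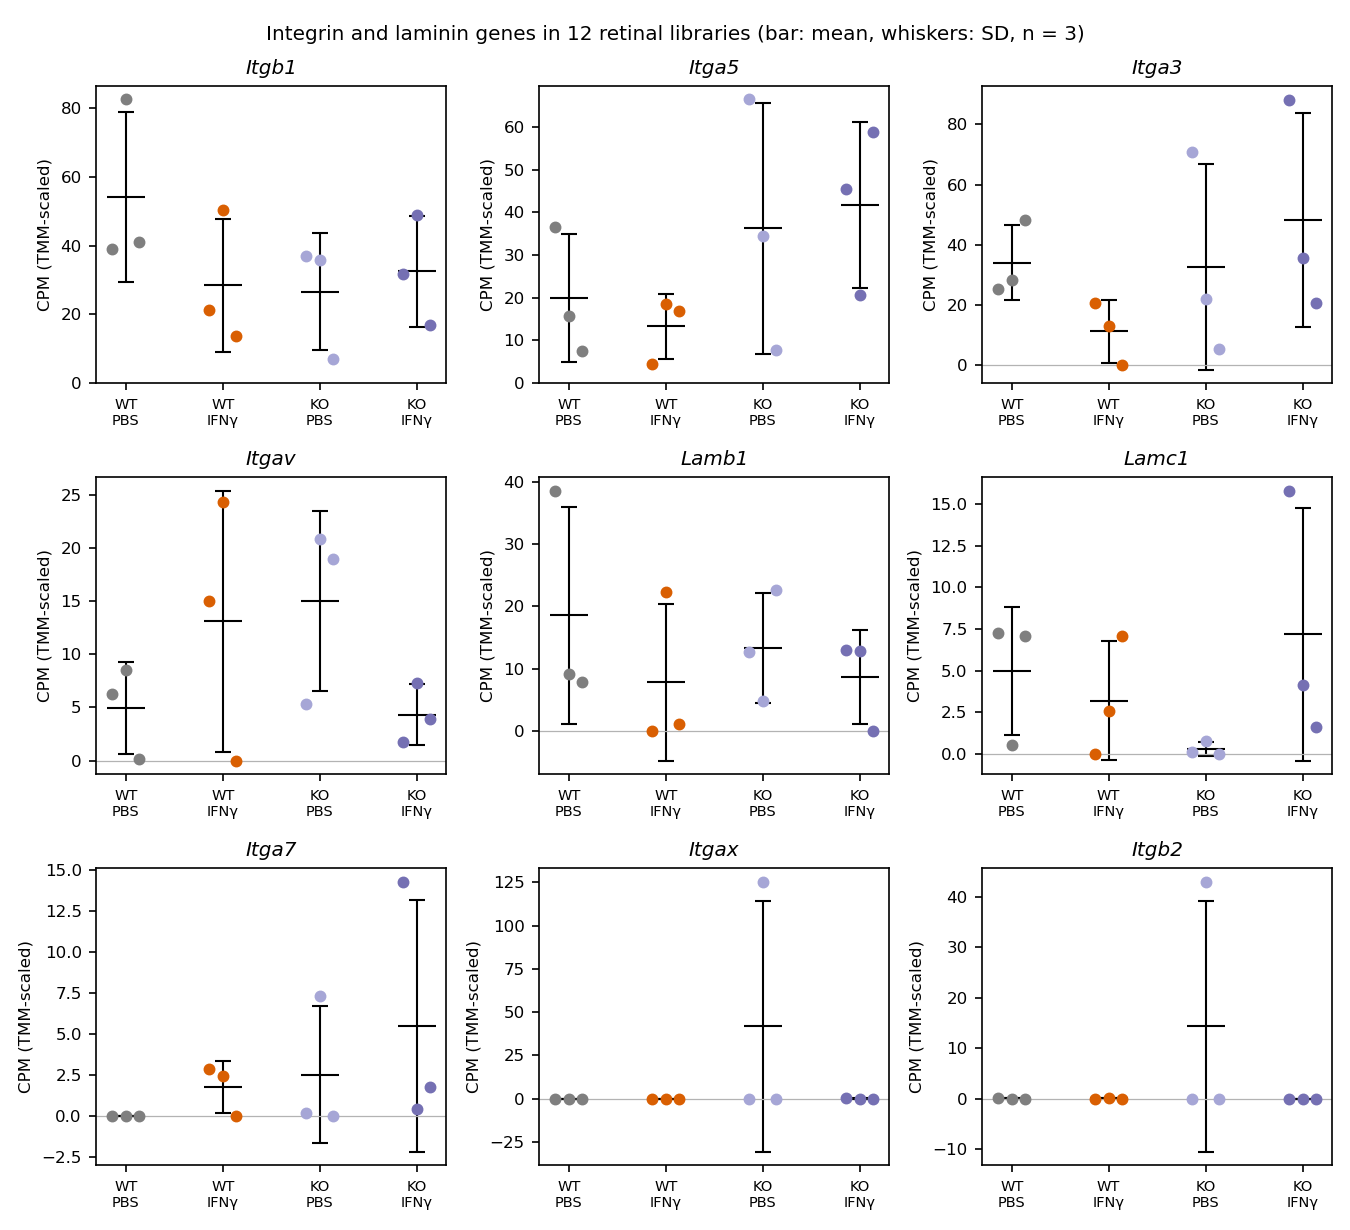
TMM-scaled CPM of 9 integrin and laminin genes in each of 12 retinal libraries, by group (WT, wild type, KO, labelled Ptpn2 knockout). Points are libraries, the bar is the mean and whiskers are the SD (n = 3), which can reach below 0. Itgax and Itgb2 are high in 1 library of the knockout-labelled cells with PBS, at 125 and 43.0 CPM.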

How the data were processed

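The deposited values are unnormalized counts by gene symbol. Trimming used Trim Galore and alignment used STAR on GRCm38, per the submitters' processing notes. The authors counted ganglion reads by featureCounts 2.0.1 over Ensembl release 101 exons at a mapping quality of 10 or more and without strand, per the file headers, and the deposited gene length column gave the exon length. For retinal reads the counting program was not given in the sources used here. An unnamed row of that table equals the column sum in 12 libraries (50% of the file total) and was left out. Each experiment was fitted whole with edgeR 4.0.16 in R 4.3.3 (TMM, filterByExpr by group with minimum count 10 and total 15, robust quasi-likelihood test, Benjamini-Hochberg), with DESeq2 1.42.0 and limma 3.58.1 as alternatives, and tested on simulated data. Promoters are from RefSeq, and figures were drawn with matplotlib. Members and lists were chosen with earlier results of these data known. Named per comparison were Itga7, Itgb1, Lama2 and the called members of lowest p, at most 8 (4 for the difference of injury effects). Integrin and laminin genes outside that rule (such as Itga3 and Itga6 in wild-type injury, Itgb3, and the leukocyte chains in retina) and the partner genes named were chosen after their values were seen.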

Additional observations from a re-analysis of the deposited data

How the results depend on the processing

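Counts of called integrin and laminin genes changed with these settings. The share of all genes called under each setting is not given beside them, so a larger count is not read as a result about these genes. Limma-voom with quality weights called 26 for injury in wild type, 5 between genotypes in sham, 9 between genotypes after injury, 5 for the difference of injury effects, 16 for RU521 and 16 for RU521-injured against sham. With detected genes as a covariate the counts were 2 for injury in wild type, 7 between genotypes after injury, 1 for the difference, 5 for RU521 and 8 for RU521-injured against sham. Without both wild-type sham libraries of few detected genes they were 2 for injury in wild type, 2 between genotypes in sham and 6 for RU521-injured against sham. DESeq2 gave 1 between genotypes in sham and 5 for RU521-injured against sham, and no count filter gave 1 between genotypes in sham, 1 for the difference and 6 for RU521-injured against sham. With only the groups compared the counts were 9 between genotypes after injury and 0 for RU521-injured against sham. Leaving out 1 library at a time gave 4 to 17 for injury in wild type, 2 to 6 for injury in the knockout, 0 to 2 between genotypes in sham, 0 to 1 after injury, 0 to 1 for the difference, 3 to 8 for RU521 and 1 to 4 for RU521-injured against sham. DESeq2 size factors in edgeR left the main counts in the 7 ganglion comparisons as they were, and the 4 retinal counts were 0 under every setting run. No called value changed sign among the gene results recomputed. Uncalled values near 0 changed sign in some settings: Itga7 and Itgb1 between genotypes in sham and in the difference of injury effects, Itga7 between genotypes after injury, Itgb1 for RU521-injured against sham and Lama2 for injury in wild type. Deviations of same-numbered ganglion libraries had a median r of -0.002 (from -0.116 to 0.267), against 0.0008 (from -0.266 to 0.210) for differently numbered ones. Replicate 1 nevertheless had the lowest mitochondrial share in each of the 5 ganglion groups (4.87%, 13.2%, 12.8%, 11.5% and 7.83%). It also had the highest summed sensory neuron markers in each. The labels state no pairs, and numbers were not taken as pairs in the main fit. With the replicate block the counts were 12 for injury in wild type, 8 in the knockout, 0 and 3 between genotypes in sham and after injury, 0 for the difference, 10 for RU521, 2 for RU521-injured against sham and 0 in each retinal comparison. The cause of these changes was not tested.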
